A study of Mus musculus with 24 samples.

Results

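Integrins are the paired alpha and beta receptors through which cells hold their matrix, and laminins are the proteins, each of an alpha, a beta and a gamma chain, at the core of basement membranes. All genes with an integrin alpha, integrin beta or laminin chain symbol (Itga, Itgb, Lama, Lamb and Lamc) and a probe set assigned to 1 gene symbol were taken by symbol alone. This gave 36 genes, 26 integrins and 10 laminins, of the 19938 genes tested. Itgad had 2 probe sets, and the brighter one was kept.

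The arrays came from 2 mouse muscle cell lines, a MuSK-null line (MuSK-/-) and a wild-type line, both made with the temperature-sensitive T antigen of the H-2Kb-tsA58 transgene. MuSK is the receptor tyrosine kinase that organises the neuromuscular synapse, and BMP4 is a bone morphogenetic protein, a ligand of the TGF-beta superfamily. The 8 groups of 3 arrays were MuSK-null myotubes with BMP4, MuSK-null myotubes untreated, wild-type myotubes with BMP4, wild-type myotubes untreated, and the same 4 groups of myoblasts. Myoblasts grew at 33 °C with interferon-gamma, and myotubes had differentiated for 3 days at 37 °C in horse serum. Culture conditions, among them temperature and medium, thus changed with stage, and their effects cannot be told apart from differentiation. BMP4 was given at 25 ng/ml for 8 h. Treated myoblasts were first deprived of serum for 4 h, and for untreated myoblasts the labels leave this step unstated, so in myoblasts the effects of serum deprivation and BMP4 cannot be told apart. Each genotype was 1 line, so genotype and line cannot be told apart either. The labels call the 3 arrays of a group biological replicates without naming separate cultures, and p-values measure the spread between these arrays. In bulk cultures, fewer cells of a type and less RNA per cell cannot be told apart.

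An integrin alpha chain largely sets what the receptor binds. Itga3, Itga6 and Itga7 pair with Itgb1 to bind laminins, Itga1, Itga2, Itga10 and Itga11 pair with Itgb1 to bind collagens, and Itga5, Itga8 and Itgav bind the RGD motif of fibronectin and related ligands. Skeletal muscle fibres rest on a basement membrane whose main laminin is built of the Lama2, Lamb1 and Lamc1 chains, and they hold it through the integrin alpha 7 beta 1 and through dystroglycan. At the neuromuscular synapse the laminin chains Lama4, Lama5 and Lamb2 are concentrated in the synaptic basal lamina.

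Signals are on a log2 scale, and a difference between groups is a log2 fold change. They were not compared between genes, since each probe set has its own brightness. As a description of weak signal, the 95th percentile of the means of 1015 olfactory receptor rows was 6.64, and 33 of the 36 genes exceeded it in at least 1 group. The 3 that did not were Itgae, Itgax and Lama3. A further 7 genes had group means under it in part. These were Lama4 and Itga1 in MuSK-null myoblasts with and without BMP4, Itga8 in all 4 wild-type groups, Itga2 in untreated myotubes of both lines, Itgam in 6 groups, and Itgal and Itgb2 in 7, all but untreated wild-type myotubes. A difference that involves such a group gives no dependable size, and the other 26 genes had no group under the level. The 24 array medians lay between 7.381 and 7.497 and the median SD within a group was 0.114 log2 units. Musk itself read 11.22 ± 0.04 in untreated MuSK-null myotubes, against 12.72 ± 0.04 in untreated wild-type myotubes (SD, n = 3 each). In myoblasts it read 10.85 ± 0.14 in untreated MuSK-null cells, against 11.57 ± 0.07 in untreated wild-type cells, so the probe set was lower in the null line without being at background. Of 14 muscle markers, all exceeded the olfactory level in 6 groups, while Myh1 did not in MuSK-null myoblasts with BMP4, and Myh1 and Myh8 did not in untreated MuSK-null myoblasts. Their mean level was 9.16 to 9.22 in untreated MuSK-null myoblasts against 11.05 to 11.08 in untreated wild-type myoblasts, and 12.22 to 12.26 in untreated MuSK-null myotubes against 12.46 to 12.51 in untreated wild-type myotubes. In 4 myoblast arrays, 1 of each myoblast group, the deviations from the group means were correlated (0.421 to 0.544 over genes). They are replicate 2 of BMP4-treated and of untreated MuSK-null myoblasts, replicate 3 of BMP4-treated wild-type myoblasts and replicate 2 of untreated wild-type myoblasts. This set, 1 array per myoblast group, was picked for its correlation over rows without a gene symbol (0.334 to 0.503). The replicate 1 arrays of the 4 myoblast groups were correlated over genes as well, at 0.203 to 0.292.

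**Figure D1:**
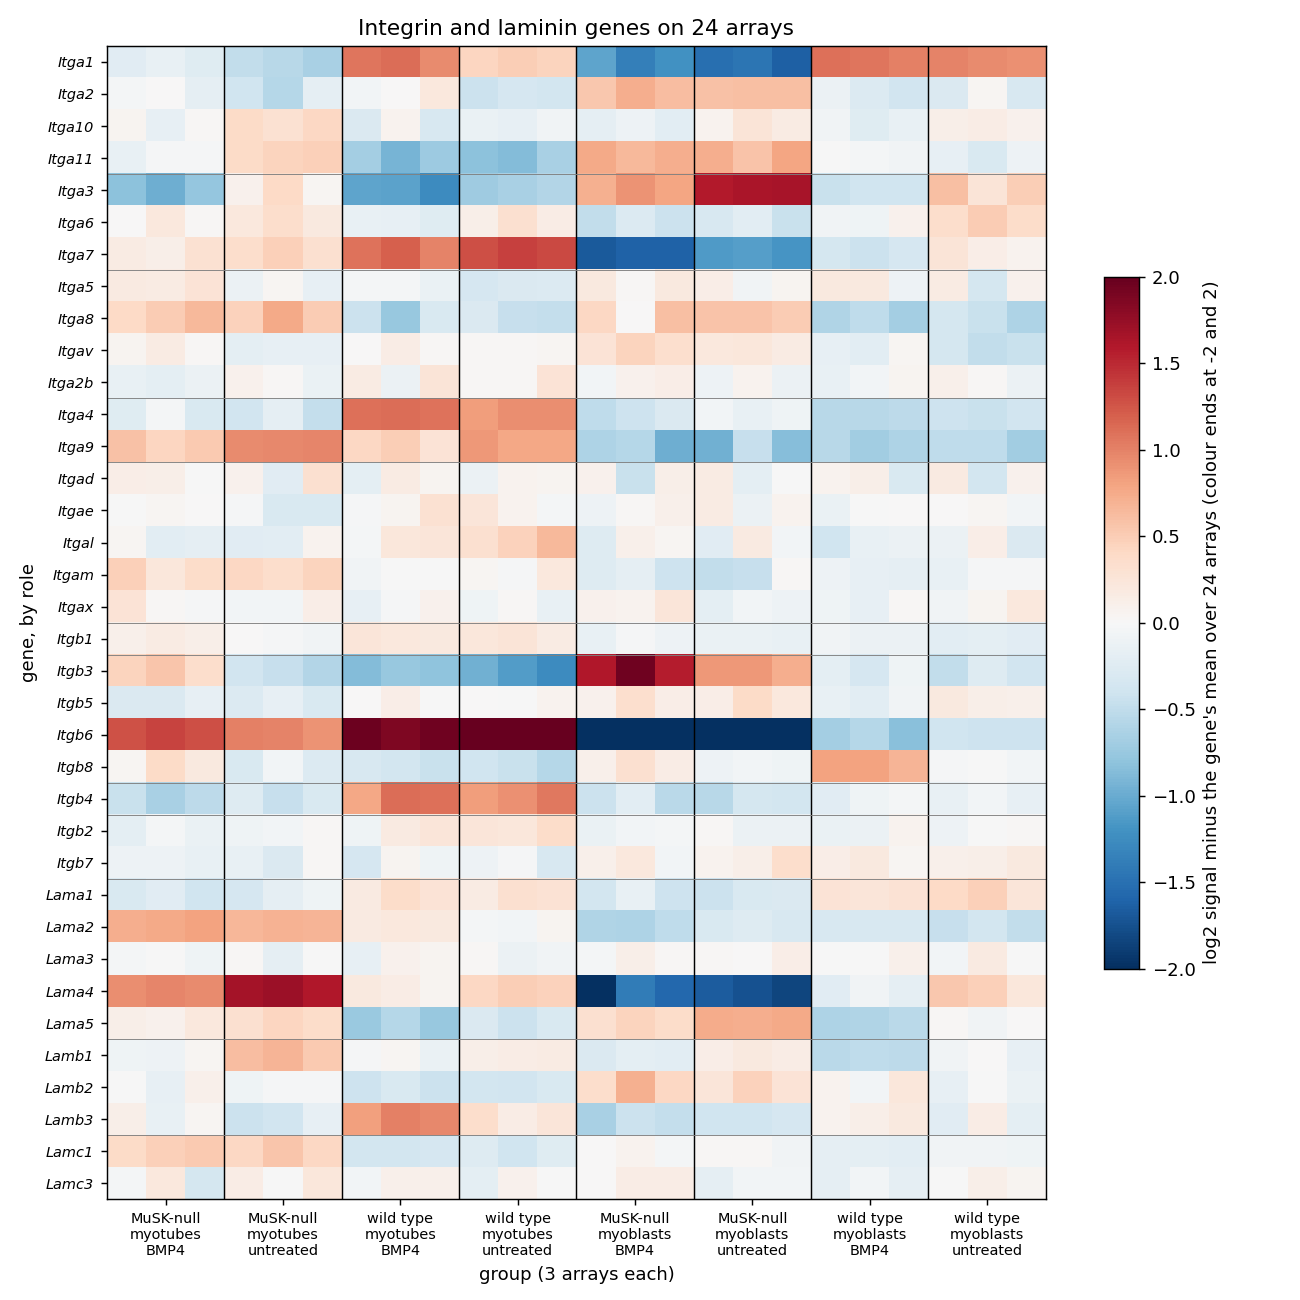
Log2 signal of the 36 integrin and laminin genes (rows, ordered by role) on the 24 arrays (columns, 3 per group), each minus the gene's mean over all arrays, with colours ending at -2 and 2. Itgb6 was dark blue in MuSK-null myoblasts (group means 6.80 with BMP4 and 7.40 untreated) and dark red in wild-type myotubes (11.60 with BMP4 and 11.73 untreated), and Itga2b, Itgad and Lama3 stayed pale throughout.

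The first question of the design was which genes BMP4 changed. BMP4 moved 20 of the 36 genes in at least 1 of the 4 cultures and 16 in none, where 21.4% of all tested genes passed in at least 1. Itga3, a laminin-binding alpha chain, and Lama5, an alpha chain found in many adult basement membranes, fell in all 4 cultures, and Itga7, Itga10 and Lamb1 fell in 3. Itga1 and Itgb8 rose in 3, while Itga2, Itgav, Itgb3 and Lamb3 rose in 2. No gene rose in all 4. Each culture had its own untreated arrays, so the 4 responses share no samples.

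In MuSK-null myotubes 8 genes were higher and 7 lower with BMP4 (limma, adjusted p under 0.05), which is 41.7% of the 36, where 11.3% of all tested genes passed (5.36% higher and 5.9% lower). In wild-type myotubes 4 were higher and 5 lower, 25% against 8.77% of all genes (4.4% higher and 4.37% lower). In MuSK-null myoblasts 3 were higher and 8 lower, 30.6% against 8.42% of all genes (3.89% higher and 4.52% lower). In wild-type myoblasts 2 were higher and 9 lower, 30.6% against 11% of all genes (5.21% higher and 5.76% lower). Here and in the later comparisons the share over all genes includes genes of weak signal. The part of signal level in the gaps to the 36 genes was not tested. The median change of the 36 genes was close to 0 in each culture, at 0.00 log2 units in MuSK-null and in wild-type myotubes, 0.01 in MuSK-null myoblasts and -0.06 in wild-type myoblasts, against -0.01, 0.02, 0.02 and 0.00 over all genes in the same order. Some muscle and fibroblast markers moved with BMP4 too, while none of 7 endothelial or 4 Schwann cell markers passed in any culture. Of 7 epithelial markers 1 was lower in MuSK-null myoblasts, and none passed elsewhere. Of 13 leukocyte markers 1 was lower in MuSK-null myotubes, 1 higher in MuSK-null myoblasts, and 1 higher and 1 lower in wild-type myoblasts. Of 3 platelet markers 1 was lower in wild-type myoblasts. Of 14 muscle markers MuSK-null myotubes had 2 higher and 1 lower, and wild-type myotubes 2 higher and 0 lower. Of 9 fibroblast markers 1 was higher and 2 lower in MuSK-null myoblasts, 1 higher and 1 lower in wild-type myoblasts, and none passed in wild-type myotubes. In MuSK-null myotubes 1 of the 9 was higher and 3 lower, with a mean level of 9.95 to 9.99 with BMP4 against 10.14 to 10.26 untreated. In MuSK-null myoblasts 4 of 14 muscle markers were lower, with a mean level of 8.96 to 9.06 against 9.16 to 9.22 untreated, and in wild-type myoblasts 2 were higher and 5 lower, with 10.97 to 11.03 against 11.05 to 11.08 untreated. Their part in the changes below was not tested.

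Among the laminin-binding chains, Itga3 (probe set 10390117) showed the widest fall. In MuSK-null myotubes it read 8.40, 8.25 and 8.45 with BMP4 and 9.31, 9.62 and 9.26 untreated, a 2.04-fold fall (log2 change -1.03, SE 0.09, adjusted p = 2.38e-08). In wild-type myotubes it read 8.17, 8.15 and 7.97 with BMP4 and 8.52, 8.58 and 8.64 untreated (log2 change -0.48, SE 0.09, adjusted p = 0.00088). The treated arrays lay below every untreated array in both lines. In MuSK-null myoblasts the readings were 9.93, 10.13 and 10.01 with BMP4, against 10.80, 10.86 and 10.88 untreated (-0.82, SE 0.09, adjusted p = 6.85e-07). In wild-type myoblasts they were 8.77, 8.82 and 8.83 with BMP4, against 9.82, 9.48 and 9.72 untreated (-0.87, SE 0.09, adjusted p = 2.55e-07). These 4 calls of Itga3 held when any 1 array was left out and in every other setting tried.

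Itga7 (probe set 10367440), the alpha chain of the main laminin-binding integrin of muscle, fell in myoblasts of both lines. It read 9.72, 9.80 and 9.79 with BMP4 and 10.28, 10.31 and 10.22 untreated in MuSK-null myoblasts (log2 change -0.50, SE 0.07, adjusted p = 1.02e-05). In wild-type myoblasts it read 11.05, 10.98 and 11.07 with BMP4 and 11.66, 11.54 and 11.48 untreated (-0.53, SE 0.07, adjusted p = 3.31e-06). The groups did not overlap in either line. In wild-type myotubes, with 12.50, 12.60 and 12.40 on BMP4 and 12.70, 12.78 and 12.73 untreated, the change was -0.24 (SE 0.07, adjusted p = 0.025), and in MuSK-null myotubes, with 11.57, 11.53 and 11.71 on BMP4 and 11.76, 11.88 and 11.73 untreated, it was -0.19 (SE 0.07, adjusted p = 0.0787). The call in wild-type myotubes was lost without untreated replicate 2 or 3 or BMP4 replicate 1 or 3 (adjusted p 0.0607 to 0.145), and the change in MuSK-null myotubes passed without BMP4 replicate 3 (adjusted p = 0.0318) and with trend and robust moderation, without dim genes or after quantile normalization (0.0297 to 0.0467). Itga6, the third laminin-binding alpha chain, fell in the wild-type line, by 0.38 log2 units in myotubes (adjusted p = 0.00281) and by 0.43 in myoblasts (adjusted p = 0.000589). In the MuSK-null line its changes were -0.18 (adjusted p = 0.213) and -0.07 (adjusted p = 0.757), and the difference between the lines did not pass in myotubes (0.20, SE 0.12, adjusted p = 0.461) or myoblasts (0.36, SE 0.12, adjusted p = 0.137), though the one in myoblasts passed with the 4 correlated arrays as a block (adjusted p = 0.0257).

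**Figure D2:**
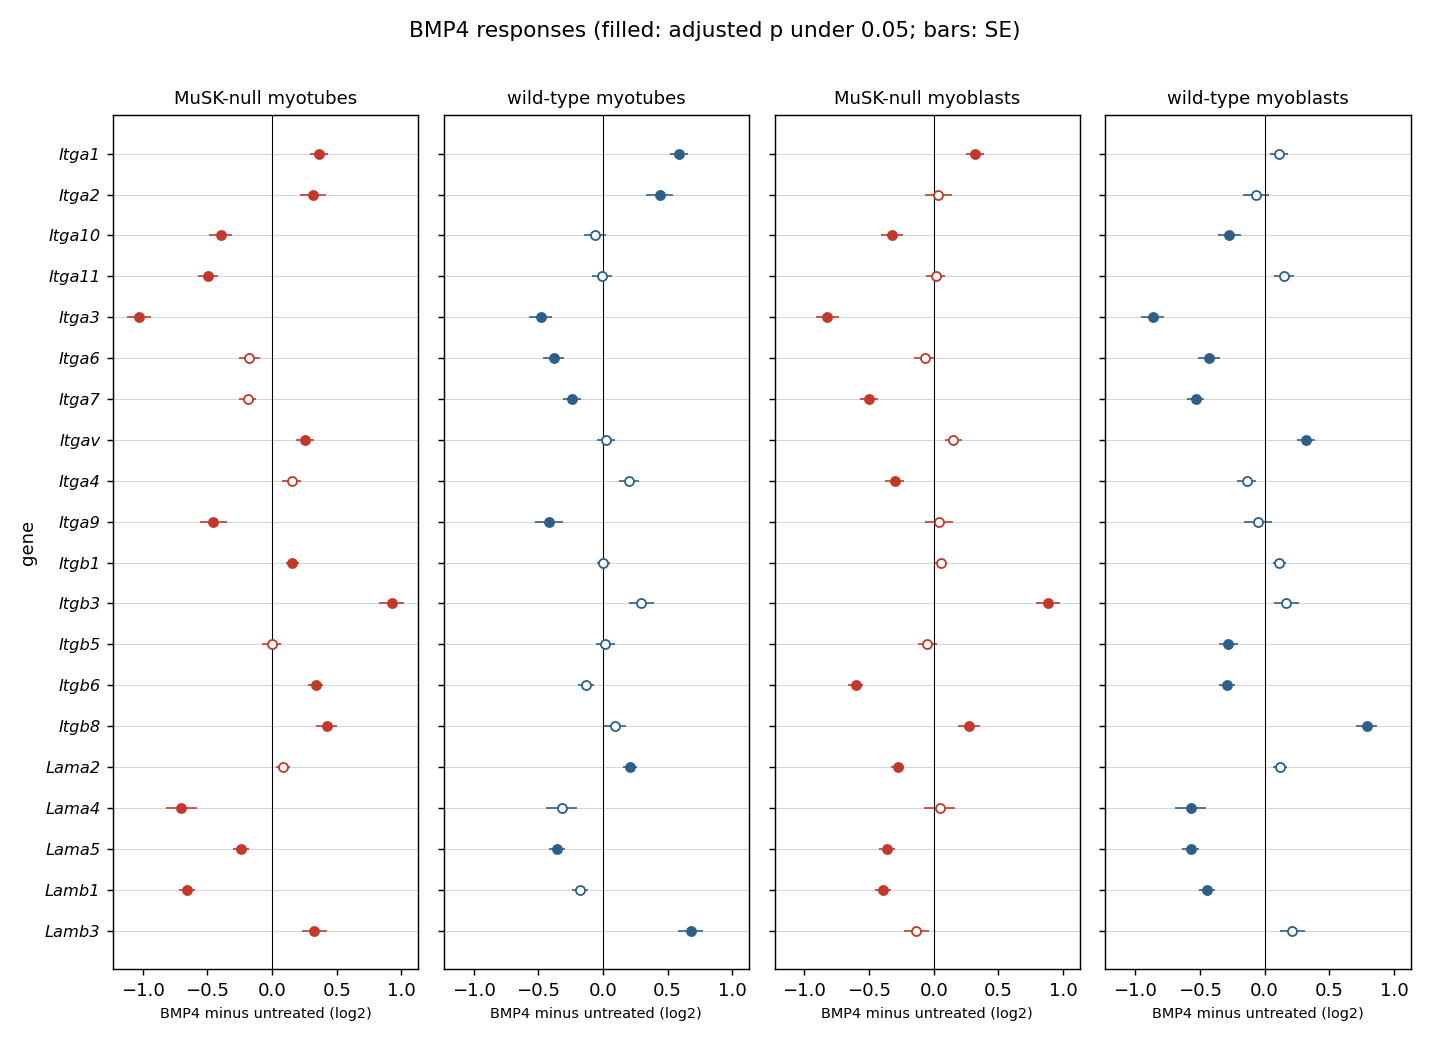
Log2 change with BMP4 (BMP4 minus untreated, 3 arrays each, bars are SE) of the 20 genes called in at least 1 culture, with filled points for an adjusted p under 0.05. Itga3 and Lama5 had filled points left of 0 in all 4 panels, and Itgb3 had filled points at 0.92 and 0.88 in MuSK-null myotubes and myoblasts and open points at 0.30 and 0.17 in wild-type myotubes and myoblasts.

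Of the laminin chains, Lama5 (probe set 10490384) fell in every culture. It averaged 9.98 ± 0.07 with BMP4 and 10.22 ± 0.06 untreated in MuSK-null myotubes, a change of -0.24 (SE 0.06, adjusted p = 0.0117), and 9.15 ± 0.10 with BMP4 and 9.50 ± 0.07 untreated in wild-type myotubes, a change of -0.36 (SE 0.06, adjusted p = 0.000434). In myoblasts it averaged 10.22 ± 0.06 with BMP4 and 10.59 ± 0.02 untreated in the MuSK-null line (-0.36, SE 0.06, adjusted p = 0.000308), and 9.26 ± 0.04 with BMP4 and 9.83 ± 0.05 untreated in the wild-type line (-0.57, SE 0.06, adjusted p = 5.02e-07). The smallest of these falls, in MuSK-null myotubes, did not pass without untreated replicate 2 (adjusted p = 0.0654) or BMP4 replicate 2 (adjusted p = 0.0647), or in a fit of those 6 arrays alone (adjusted p = 0.0663).

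Lamb1 (probe set 10395163), the beta chain of the main muscle laminin, read 10.22, 10.21 and 10.35 with BMP4 and 10.93, 10.99 and 10.83 untreated in MuSK-null myotubes, a 1.58-fold fall (log2 change -0.66, SE 0.06, adjusted p = 4.89e-08). In wild-type myotubes it read 10.28, 10.34 and 10.18 with BMP4 and 10.42, 10.46 and 10.47 untreated, and the change of -0.18 (SE 0.06) had an adjusted p of 0.0782. It passed without dim genes (adjusted p = 0.0463), with arrays centred on their medians (0.0348) and with the 4 correlated arrays as a block (0.0382). Both sets of treated arrays lay below their untreated arrays. In MuSK-null myoblasts Lamb1 read 10.02, 10.11 and 10.10 with BMP4 and 10.43, 10.51 and 10.46 untreated (-0.39, SE 0.06, adjusted p = 8.97e-05), and in wild-type myoblasts 9.77, 9.80 and 9.79 with BMP4 and 10.23, 10.31 and 10.15 untreated (-0.44, SE 0.06, adjusted p = 1.31e-05). The other 2 chains of that laminin did not follow Lamb1, except that Lama2 fell with it in MuSK-null myoblasts. Lamc1 passed in no culture, with changes between -0.12 and 0.02, and its arrays read 11.77, 11.86 and 11.90 with BMP4 and 11.79, 11.93 and 11.80 untreated in MuSK-null myotubes. Lama2 rose in wild-type myotubes, where it read 11.04, 11.08 and 11.06 with BMP4 and 10.83, 10.81 and 10.92 untreated (0.21, SE 0.05, adjusted p = 0.0107), and fell in MuSK-null myoblasts, where it read 10.26, 10.25 and 10.35 with BMP4 and 10.56, 10.60 and 10.54 untreated (-0.28, SE 0.05, adjusted p = 0.000693). The rise in wild-type myotubes was lost without untreated replicate 1 (adjusted p = 0.0533) or 2 (adjusted p = 0.0634).

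Lama4 (probe set 10362538) read 8.62, 8.66 and 8.64 with BMP4 and 9.36, 9.40 and 9.28 untreated in MuSK-null myotubes, a 1.63-fold fall (log2 change -0.70, SE 0.12, adjusted p = 0.000185). In wild-type myoblasts it read 7.46, 7.61 and 7.50 with BMP4 and 8.22, 8.16 and 7.91 untreated (-0.57, SE 0.12, adjusted p = 0.00173). In wild-type myotubes the change was -0.32 (SE 0.12, adjusted p = 0.12), which passed in a fit of those 6 arrays alone (0.026), and in MuSK-null myoblasts both groups lay under the olfactory level, at 5.98 with BMP4 and 5.93 untreated. Lamb3, a beta chain best known from epithelial basement membranes, rose by 0.68 (SE 0.10, adjusted p = 2.83e-05) in wild-type myotubes, where it read 8.71, 8.89 and 8.85 with BMP4 and 8.24, 8.04 and 8.13 untreated. Its alpha partner Lama3 stayed at the weak-signal level in all 8 groups, with means of 6.26 to 6.37.

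The promoters of the genes that moved together are shown so that the sequence at the start of the genes can be read beside their changes. RefSeq promoter windows of GRCm38.p6, 250 bases before to 50 after a transcript start, were matched by symbol to 23 of the 36 genes (26 windows). The other 13, among them Itga7, Itgb3 and Lama4, had no entry. The motifs searched were the E-box that the myogenic factors bind (CANNTG), a GC-rich site that BMP-activated SMAD proteins bind (GGCGCC), and the E-box form with GC at its centre (CAGCTG). Each reads the same on both strands, so 1 search covered both. The GC-rich site overlapped no E-box in the windows printed, and the GC-centred form is also counted as an E-box. The GC-rich site stood in 3 of the 26 windows, those of Itgb1, Lama5 and Lamb1, and in 11.9% of 32851 RefSeq windows of the same length. The E-box letters stood in 22 of the 26 and in 72.3% of all, and the GC-centred form in 8 of the 26 and in 16.3% of all. Of the 12 windows of genes called lower by BMP4 in at least 1 culture, 2 held the GC-rich site, 11 an E-box and 3 the GC-centred form. Of the other 14, 1 held the GC-rich site, that of Itgb1, 11 an E-box and 5 the GC-centred form. Among the windows of genes called lower, the 1 without an E-box was that of Itga10. It held none of the 3 motifs and is not printed. The windows of Itga3 (chr11:95076665-95076964), Lama5 (chr2:180225810-180226109), Itgb6 (chr2:60722554-60722853) and Lama2 (chr10:27616893-27617192) lie on the minus strand and that of Lamb1 (chr12:31265043-31265342) on the plus strand. They are printed from 5′ to 3′ with matches to either motif in capitals.
Itga3: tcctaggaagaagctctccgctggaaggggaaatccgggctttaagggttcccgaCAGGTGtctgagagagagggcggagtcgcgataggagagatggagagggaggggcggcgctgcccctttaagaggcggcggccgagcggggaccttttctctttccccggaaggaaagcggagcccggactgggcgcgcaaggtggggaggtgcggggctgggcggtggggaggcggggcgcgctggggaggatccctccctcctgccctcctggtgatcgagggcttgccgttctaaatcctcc
Lama5: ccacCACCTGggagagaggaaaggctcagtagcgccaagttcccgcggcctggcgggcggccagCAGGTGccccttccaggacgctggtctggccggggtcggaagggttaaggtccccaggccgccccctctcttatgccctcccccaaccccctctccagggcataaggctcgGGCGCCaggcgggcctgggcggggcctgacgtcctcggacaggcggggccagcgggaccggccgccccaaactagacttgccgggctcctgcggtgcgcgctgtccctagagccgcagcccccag
Lamb1: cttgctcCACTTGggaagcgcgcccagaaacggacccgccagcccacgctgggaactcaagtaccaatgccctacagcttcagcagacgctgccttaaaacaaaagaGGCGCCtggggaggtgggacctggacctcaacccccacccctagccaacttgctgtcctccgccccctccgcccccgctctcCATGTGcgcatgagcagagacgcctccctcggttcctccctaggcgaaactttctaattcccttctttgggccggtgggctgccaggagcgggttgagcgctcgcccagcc
Itgb6: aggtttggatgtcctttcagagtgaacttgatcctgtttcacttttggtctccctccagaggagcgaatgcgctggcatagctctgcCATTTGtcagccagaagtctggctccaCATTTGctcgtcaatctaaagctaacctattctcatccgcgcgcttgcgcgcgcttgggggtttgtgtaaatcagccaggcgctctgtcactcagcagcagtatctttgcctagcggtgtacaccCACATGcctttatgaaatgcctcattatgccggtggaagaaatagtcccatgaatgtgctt
Lama2: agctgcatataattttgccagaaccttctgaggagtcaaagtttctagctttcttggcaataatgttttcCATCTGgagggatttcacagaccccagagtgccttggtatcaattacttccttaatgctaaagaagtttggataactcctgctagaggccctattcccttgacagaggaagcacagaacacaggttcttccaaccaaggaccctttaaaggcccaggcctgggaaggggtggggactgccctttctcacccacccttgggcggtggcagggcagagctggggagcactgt
Of the windows printed, those of Lama5 and Lamb1 each held 1 match to the GC-rich site and 2 to the E-box, while that of Itga3 held 1 to the E-box and none to the GC-rich site. Those of Itgb6 and Lama2 held 3 and 1 matches to the E-box and none to the GC-rich site. The windows do not divide by response. Lamb1, like Itgb6 and Lama2, rose with differentiation in both lines. All 5 genes were called lower by BMP4 in at least 1 culture, and Itgb6 and Lama2 higher in another. None of the 5 held the GC-centred form. A match is a string of letters, not a shown binding site.

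Beta chains that pair with alpha v moved in different directions. Itgb3 (probe set 10381809) read 9.30, 9.41 and 9.22 with BMP4 and 8.48, 8.39 and 8.28 untreated in MuSK-null myotubes, a 1.90-fold rise (log2 change 0.92, SE 0.10, adjusted p = 2.36e-07). In MuSK-null myoblasts it read 10.47, 10.80 and 10.43 with BMP4 and 9.73, 9.73 and 9.59 untreated, a 1.84-fold rise (0.88, SE 0.10, adjusted p = 4.94e-07). Treated and untreated arrays of the null line were well apart at both stages. In wild-type myotubes the readings were 7.99, 8.10 and 8.06 with BMP4 and 7.89, 7.75 and 7.61 untreated (0.30, SE 0.10, adjusted p = 0.0575), and in wild-type myoblasts 8.67, 8.53 and 8.77 with BMP4 and 8.37, 8.60 and 8.48 untreated (0.17, SE 0.10, adjusted p = 0.39). The change in wild-type myotubes passed without untreated replicate 1 (0.37, adjusted p = 0.0344) and in 5 other settings (adjusted p 0.0138 to 0.0485), among them the fit with the replicate number as a block, where it was 0.0485.

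Itgb8, which with alpha v activates latent TGF-beta, rose most in wild-type myoblasts, where it read 10.16, 10.17 and 10.04 with BMP4 and 9.34, 9.35 and 9.31 untreated (log2 change 0.79, SE 0.08, adjusted p = 2.11e-07). It rose by 0.42 (SE 0.08, adjusted p = 0.000846) in MuSK-null myotubes and by 0.27 (SE 0.08, adjusted p = 0.0419) in MuSK-null myoblasts, and in wild-type myotubes the change was 0.09 (SE 0.08, adjusted p = 0.617). Itgb6 (probe set 10483000), whose product with alpha v does the same, read 10.96, 11.03 and 10.97 with BMP4 and 10.69, 10.68 and 10.58 untreated in MuSK-null myotubes (0.34, SE 0.06, adjusted p = 0.000273). In MuSK-null myoblasts it read 6.76, 6.82 and 6.81 with BMP4 and 7.43, 7.41 and 7.37 untreated (-0.60, SE 0.06, adjusted p = 1.09e-07). So Itgb6 rose in the myotubes and fell in the myoblasts of the null line. In wild-type myoblasts it fell by 0.29 (SE 0.06, adjusted p = 0.00128), a call that was lost when those 6 arrays were fitted alone (adjusted p = 0.0633), and in wild-type myotubes the change was -0.13 (SE 0.06, adjusted p = 0.225). Itgav, the shared alpha partner, rose by 0.26 in MuSK-null myotubes (SE 0.07, adjusted p = 0.0138) and by 0.32 in wild-type myoblasts (SE 0.07, adjusted p = 0.00193). Itgb5, another alpha v partner, fell in wild-type myoblasts alone among the calls (-0.28, SE 0.07, adjusted p = 0.0124).

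**Figure D3:**
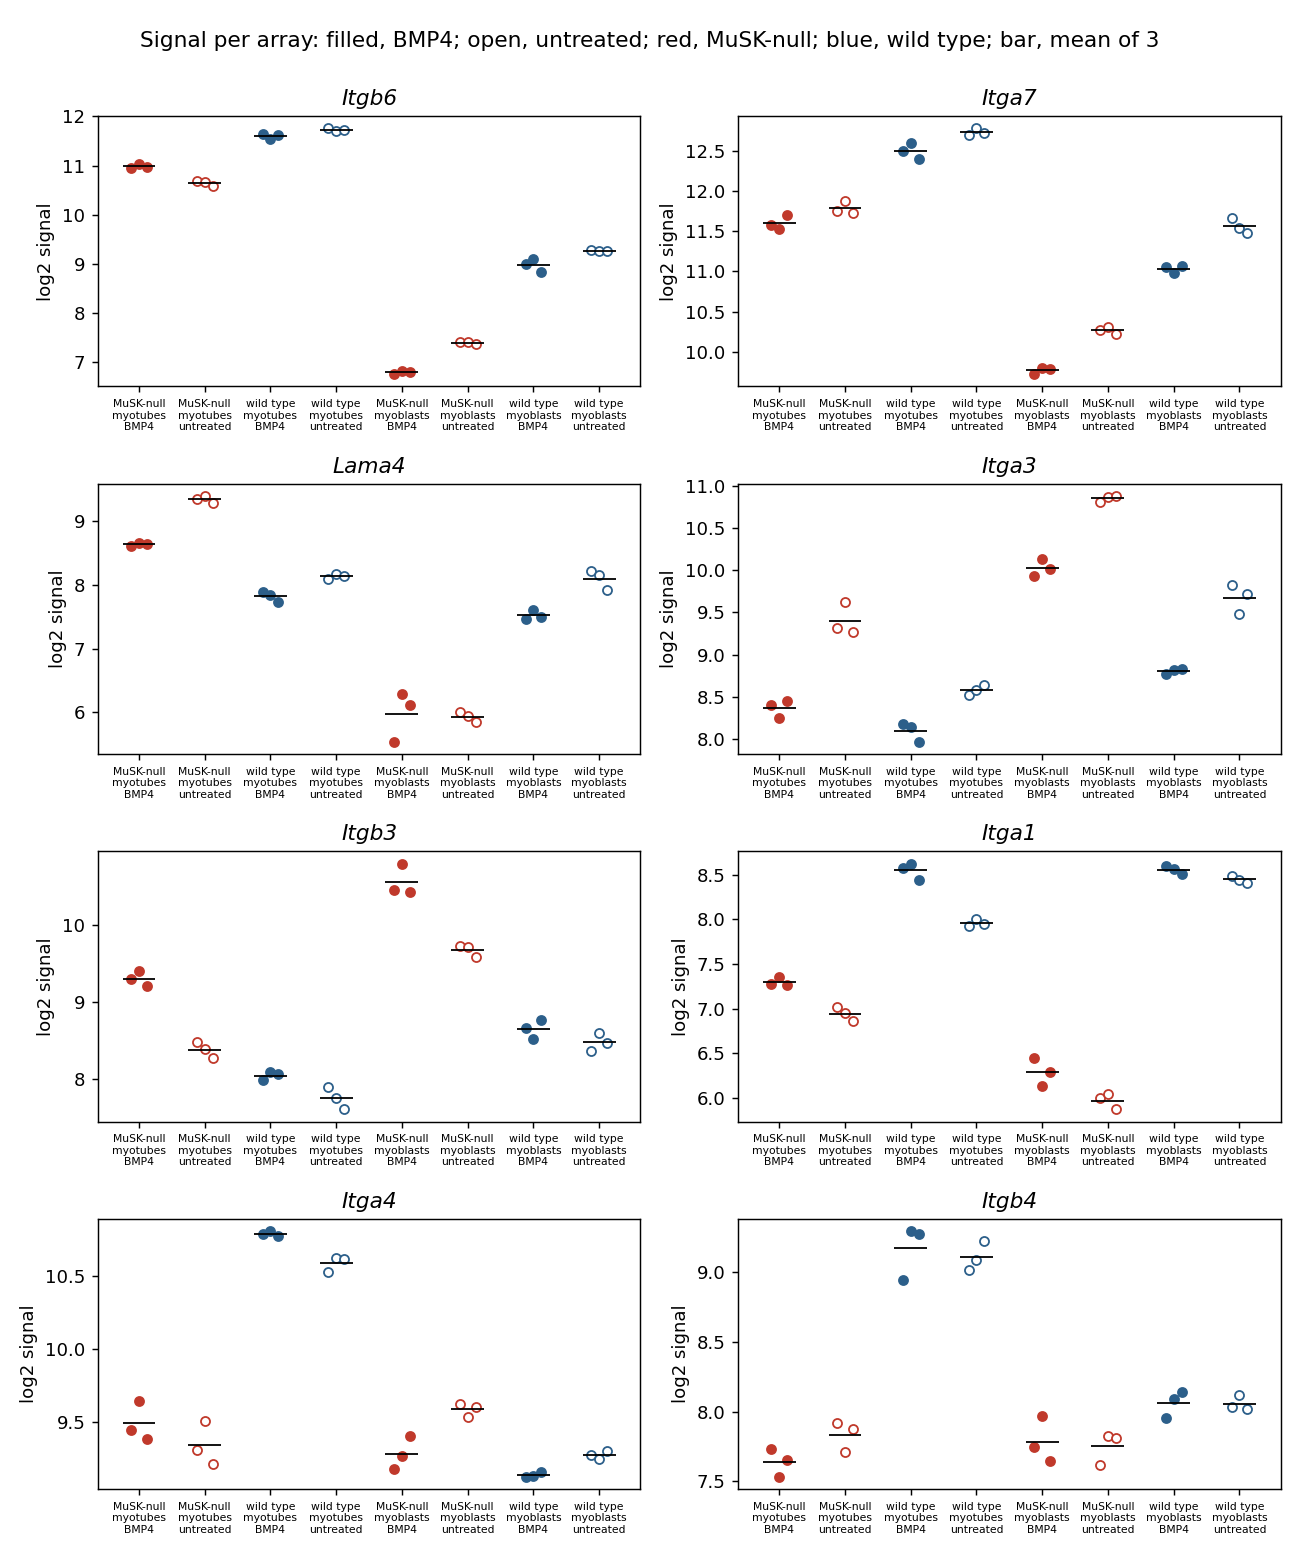
Log2 signal on each array of 8 genes with called changes of at least 1 log2 unit, filled for BMP4, open for untreated, red for MuSK-null and blue for wild type, with a bar at the mean of 3. Lama4 was lowest in MuSK-null myoblasts (means 5.98 with BMP4 and 5.93 untreated) and highest in untreated MuSK-null myotubes (9.34), and Itgb3 stood above its untreated arrays in both BMP4-treated MuSK-null groups.

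The collagen-binding chains did not move as one with BMP4. Itga1 (probe set 10412298) read 8.57, 8.62 and 8.44 with BMP4 and 7.93, 8.00 and 7.95 untreated in wild-type myotubes, a rise of 0.59 (SE 0.07, adjusted p = 4.31e-06), and 7.28, 7.36 and 7.26 with BMP4 and 7.01, 6.94 and 6.85 untreated in MuSK-null myotubes, a rise of 0.36 (SE 0.07, adjusted p = 0.00111). In MuSK-null myoblasts it rose by 0.32 (adjusted p = 0.00493) at levels under the olfactory level. Itga2 rose in myotubes of both lines, by 0.44 (SE 0.10, adjusted p = 0.0057) in wild type and 0.32 (SE 0.10, adjusted p = 0.0458) in MuSK-null, with untreated groups under the olfactory level. Itga10 fell in 3 cultures by 0.27 to 0.40, and Itga11 (probe set 10586079) fell in MuSK-null myotubes, where it read 8.45, 8.58 and 8.57 with BMP4 and 8.98, 9.04 and 9.07 untreated (-0.50, SE 0.08, adjusted p = 5.59e-05). Its changes in the other cultures lay between -0.01 and 0.15. Thus 2 collagen-binding chains were higher and 2 lower with BMP4 in MuSK-null myotubes.

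Among the remaining integrins, Itga9 (probe set 10590031), a receptor chain for tenascin C and other ligands, fell in myotubes of both lines. It read 8.18, 8.03 and 8.12 with BMP4 and 8.54, 8.56 and 8.58 untreated in MuSK-null myotubes (log2 change -0.45, SE 0.11, adjusted p = 0.00521), and 8.00, 8.09 and 7.87 with BMP4 and 8.47, 8.37 and 8.37 untreated in wild-type myotubes (-0.42, SE 0.11, adjusted p = 0.0139). Itga4 (probe set 10473125), whose product with Itgb1 binds VCAM1 and fibronectin, fell in MuSK-null myoblasts by 0.30 (SE 0.07, adjusted p = 0.00958). Itgb1 (probe set 10576661), the beta chain shared by most of these receptors, read 12.65, 12.70 and 12.66 with BMP4 and 12.55, 12.51 and 12.48 untreated in MuSK-null myotubes, a rise of 0.16 (SE 0.05, adjusted p = 0.0439) that did not pass when any 1 of those 6 arrays was left out (adjusted p 0.0671 to 0.151). Its changes in the other 3 cultures were 0.00, 0.05 and 0.11 and did not pass. Itga5, the fibronectin receptor chain, had changes of 0.29 (SE 0.10, adjusted p = 0.0819) in MuSK-null and 0.23 (SE 0.10, adjusted p = 0.202) in wild-type myotubes. The change in MuSK-null myotubes passed in 4 other settings (adjusted p 0.00159 to 0.0468), and the one in wild-type myotubes passed without the 4 correlated arrays (0.0102) or with them as a block (0.0183). Itgb4 (probe set 10382713), the partner of Itga6 in hemidesmosomes, and Itga8 (probe set 10480090), an alpha chain that binds nephronectin, passed in no culture. None of the 7 leukocyte chains passed in any culture, by limma (Itgad, Itgae, Itgal, Itgam, Itgax, Itgb2 and Itgb7). Of all tested genes 21.4% passed in at least 1 culture, so few calls would be due among 7 genes. Itgae and Itgax lay under the olfactory level in all 8 groups, Itgal and Itgb2 in 7, and Itgam in 6. The lack of calls thus says little about these chains.

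Several small BMP4 calls were lost when a single array was left out, often whichever of several arrays it was. In MuSK-null myotubes, Itga2 was lost without untreated replicate 1 or 2 or BMP4 replicate 1 or 2 (adjusted p 0.116 to 0.255), Lamb3 (0.33) without untreated replicate 1 or 2 or BMP4 replicate 1 or 3 (0.0874 to 0.143), and Itgav without untreated replicate 1 (0.0572) or BMP4 replicate 2 (0.0885). In wild-type myotubes, Itga9 was lost without untreated replicate 1 (0.0671) or BMP4 replicate 3 (0.083). In MuSK-null myoblasts, Itgb8 was lost without any untreated replicate or without BMP4 replicate 2 or 3 (0.0754 to 0.197), Itga10 without untreated replicate 2 or BMP4 replicate 1 or 3 (0.0562 to 0.0954), Itga4 without untreated replicate 1 (0.0501) or BMP4 replicate 1 (0.0765), and Itga1 without BMP4 replicate 1 (0.0557). In wild-type myoblasts, Itga10 was lost without any untreated replicate or without BMP4 replicate 2 or 3 (0.0788 to 0.191), and Itgb5 without untreated replicate 1 (0.0671) or BMP4 replicate 2 (0.0715). Without the 4 correlated arrays, Itgav in wild-type myoblasts was at 0.21 (adjusted p = 0.0506).

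Whether the null line answered BMP4 differently from the wild-type line was tested as a difference of responses. In myotubes 2 genes were higher and 3 lower by this test, 13.9% of the 36 against 3.21% of all genes (1.5% higher and 1.71% lower). The response of Itgb3 was greater in the MuSK-null line by 0.63 (SE 0.14, adjusted p = 0.00863), and that of Itgb6 by 0.47 (SE 0.08, adjusted p = 0.0017). Lamb1 responded with a deeper fall in the MuSK-null line, by -0.48 (SE 0.09, adjusted p = 0.00179), as did Itga11, by -0.49 (SE 0.11, adjusted p = 0.00997), and Itga3, by -0.55 (SE 0.13, adjusted p = 0.0169). For Itga3 the difference was lost without wild-type untreated replicate 1 (adjusted p = 0.051), MuSK-null untreated replicate 2 (0.0537) or MuSK-null BMP4 replicate 2 (0.0587).

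In myoblasts 1 gene was higher and 3 lower by the same test, 11.1% against 2.39% of all genes (1.17% higher and 1.22% lower). Itgb3 again responded more in the MuSK-null line, by 0.71 (SE 0.14, adjusted p = 0.00309), and this difference held at both stages. Itgb8 responded less in the MuSK-null line (-0.52, SE 0.12, adjusted p = 0.0134), and Lama2 fell there while its change in wild-type myoblasts was 0.12 (difference -0.40, SE 0.07, adjusted p = 0.00246). The difference of Itgb6 was -0.31 (SE 0.08, adjusted p = 0.0497), and it was lost on leaving out any 1 of 11 of the 12 arrays (adjusted p 0.0637 to 0.177), all but wild-type BMP4 replicate 3. The BMP4 changes of Lama4 in myoblasts, 0.05 in MuSK-null and -0.57 in wild type, had a difference of 0.62 (SE 0.17, adjusted p = 0.058), which passed with trend and robust moderation (0.0376), without dim genes (0.0353), with the correlated arrays as a block (0.039), and without wild-type untreated replicate 3 (0.71, adjusted p = 0.0329) or MuSK-null BMP4 replicate 1 (0.84, adjusted p = 0.000124). That last array read 5.54, against 6.28 and 6.12 on the other 2 arrays of its group.

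More of these genes differed between untreated myotubes and untreated myoblasts. This comparison is called differentiation here, and it takes in the change of temperature and medium. In the MuSK-null line 10 genes were higher and 11 lower in untreated myotubes than in untreated myoblasts, 58.3% against 41.6% of all genes (18.2% higher and 23.4% lower). In the wild-type line 12 were higher and 12 lower, 66.7% against 45% of all genes (20.3% higher and 24.7% lower). Itga7, Itga9, Itgb6, Lama2 and Lamb1 rose in both lines, and Itga3, Itga11, Itgb3, Itgb7, Lama5 and Lamb2 fell in both. The median change of the 36 was 0.05 in the MuSK-null and -0.03 in the wild-type line, against -0.01 and -0.05 over all genes. With differentiation 12 of the 14 muscle markers rose and 1 fell in each line, with median changes of 3.53 in the MuSK-null line and 1.44 in the wild-type line.

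Itgb6 had the largest rise shared by both lines. It read 10.69, 10.68 and 10.58 in untreated MuSK-null myotubes and 7.43, 7.41 and 7.37 in untreated MuSK-null myoblasts, a 9.48-fold rise (log2 change 3.25, SE 0.06, adjusted p = 5e-22). In the wild-type line it read 11.76, 11.70 and 11.73 in myotubes and 9.28, 9.27 and 9.27 in myoblasts, a 5.50-fold rise (2.46, SE 0.06, adjusted p = 4.81e-19). Itga7 read 11.76, 11.88 and 11.73 in MuSK-null myotubes and 10.28, 10.31 and 10.22 in MuSK-null myoblasts (1.52, SE 0.07, adjusted p = 6.82e-15), and 12.70, 12.78 and 12.73 in wild-type myotubes against 11.66, 11.54 and 11.48 in wild-type myoblasts (1.17, SE 0.07, adjusted p = 7.75e-13). Stage separated every array of both genes within each line. Itga9 read 8.54, 8.56 and 8.58 in MuSK-null myotubes and 6.63, 7.14 and 6.75 in MuSK-null myoblasts, a 3.30-fold rise (1.72, SE 0.11, adjusted p = 3.91e-12), and 8.47, 8.37 and 8.37 in wild-type myotubes against 7.08, 7.10 and 6.91 in wild-type myoblasts, a 2.59-fold rise (1.37, SE 0.11, adjusted p = 1.98e-10).

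The chains of the main muscle laminin rose unevenly. Lama2 (probe set 10368409) read 11.52, 11.55 and 11.55 in MuSK-null myotubes and 10.56, 10.60 and 10.54 in MuSK-null myoblasts (log2 change 0.98, SE 0.05, adjusted p = 2.73e-13), and 10.83, 10.81 and 10.92 in wild-type myotubes against 10.40, 10.49 and 10.37 in wild-type myoblasts (0.43, SE 0.05, adjusted p = 3e-07). Lamb1 rose by 0.45 (SE 0.06, adjusted p = 1.57e-06) in the MuSK-null and by 0.22 (SE 0.06, adjusted p = 0.00532) in the wild-type line. Lamc1 (probe set 10358816) split by line, with 11.79, 11.93 and 11.80 in MuSK-null myotubes against 11.40, 11.41 and 11.31 in MuSK-null myoblasts (0.47, SE 0.06, adjusted p = 4.6e-07), and 11.12, 10.99 and 11.13 in wild-type myotubes against 11.31, 11.31 and 11.30 in wild-type myoblasts (-0.23, SE 0.06, adjusted p = 0.00252). Lama5 fell by 0.37 in the MuSK-null line (adjusted p = 3.92e-05) and by 0.33 in the wild-type line (adjusted p = 0.000131).

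Itga3 and Itgb3 led the falls. Itga3 read 9.31, 9.62 and 9.26 in MuSK-null myotubes against 10.80, 10.86 and 10.88 in MuSK-null myoblasts, a 2.73-fold fall (log2 change -1.45, SE 0.09, adjusted p = 4.98e-12). In the wild-type line it read 8.52, 8.58 and 8.64 in myotubes against 9.82, 9.48 and 9.72 in myoblasts, a 2.13-fold fall (-1.09, SE 0.09, adjusted p = 6.42e-10). Itgb3 fell by 1.30 (SE 0.10, adjusted p = 8.09e-11) in the MuSK-null and by 0.73 (SE 0.10, adjusted p = 8.36e-07) in the wild-type line. Both genes were lower in each myotube array than in any myoblast array of the same line. With BMP4, as given above, Itga3 fell in all 4 cultures and Itgb3 rose in the null line, and the untreated arrays enter both kinds of comparison.

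The test of the difference between lines in their differentiation changes called 12 genes higher and 9 lower, 58.3% of the 36 against 29.1% of all genes (14.9% higher and 14.1% lower). With arrays centred on their medians the split was 9 higher and 11 lower. Lama4 had the largest difference. It read 9.36, 9.40 and 9.28 in MuSK-null myotubes and 6.01, 5.94 and 5.84 in MuSK-null myoblasts (log2 change 3.41, SE 0.12, adjusted p = 1.07e-16), while in the wild-type line it read 8.09, 8.17 and 8.14 in myotubes and 8.22, 8.16 and 7.91 in myoblasts (0.04, SE 0.12, adjusted p = 0.818). The difference was 3.37 (SE 0.17, adjusted p = 3.79e-13), and since the MuSK-null myoblasts lay under the olfactory level its size is not dependable. Itga1 rose in the MuSK-null line, with 7.01, 6.94 and 6.85 in myotubes and 5.99, 6.04 and 5.87 in myoblasts (0.97, SE 0.07, adjusted p = 1.02e-10), and fell in the wild-type line, with 7.93, 8.00 and 7.95 in myotubes and 8.49, 8.44 and 8.41 in myoblasts (-0.49, SE 0.07, adjusted p = 5.07e-06). The difference of Itga1 was 1.46 (SE 0.10, adjusted p = 1.25e-10).

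Itga4 went the opposite way. It read 9.30, 9.50 and 9.21 in MuSK-null myotubes and 9.62, 9.53 and 9.60 in MuSK-null myoblasts (log2 change -0.25, SE 0.07, adjusted p = 0.0098), and 10.52, 10.62 and 10.61 in wild-type myotubes against 9.27, 9.24 and 9.30 in wild-type myoblasts, a 2.48-fold rise (1.31, SE 0.07, adjusted p = 7.41e-13). The fall in the null line was lost without MuSK-null myotube replicate 3 (-0.18, adjusted p = 0.0803), while the difference between the lines was -1.56 (SE 0.11, adjusted p = 6.53e-11). Itgb4 rose in the wild-type line, with 9.01, 9.09 and 9.23 in myotubes and 8.04, 8.12 and 8.02 in myoblasts (1.05, SE 0.10, adjusted p = 4.08e-09), and read 7.92, 7.71 and 7.87 in MuSK-null myotubes against 7.62, 7.83 and 7.81 in MuSK-null myoblasts (0.08, SE 0.10, adjusted p = 0.566). Its difference was -0.97 (SE 0.14, adjusted p = 8.07e-06). Itgb1 rose by 0.43 (SE 0.05, adjusted p = 1.52e-07) in the wild-type line, where it read 12.76, 12.80 and 12.71 in myotubes and 12.34, 12.34 and 12.32 in myoblasts. In the MuSK-null line the change of Itgb1 was 0.11 (SE 0.05, adjusted p = 0.0811), and the difference was -0.31 (SE 0.07, adjusted p = 0.00133).

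**Figure D4:**
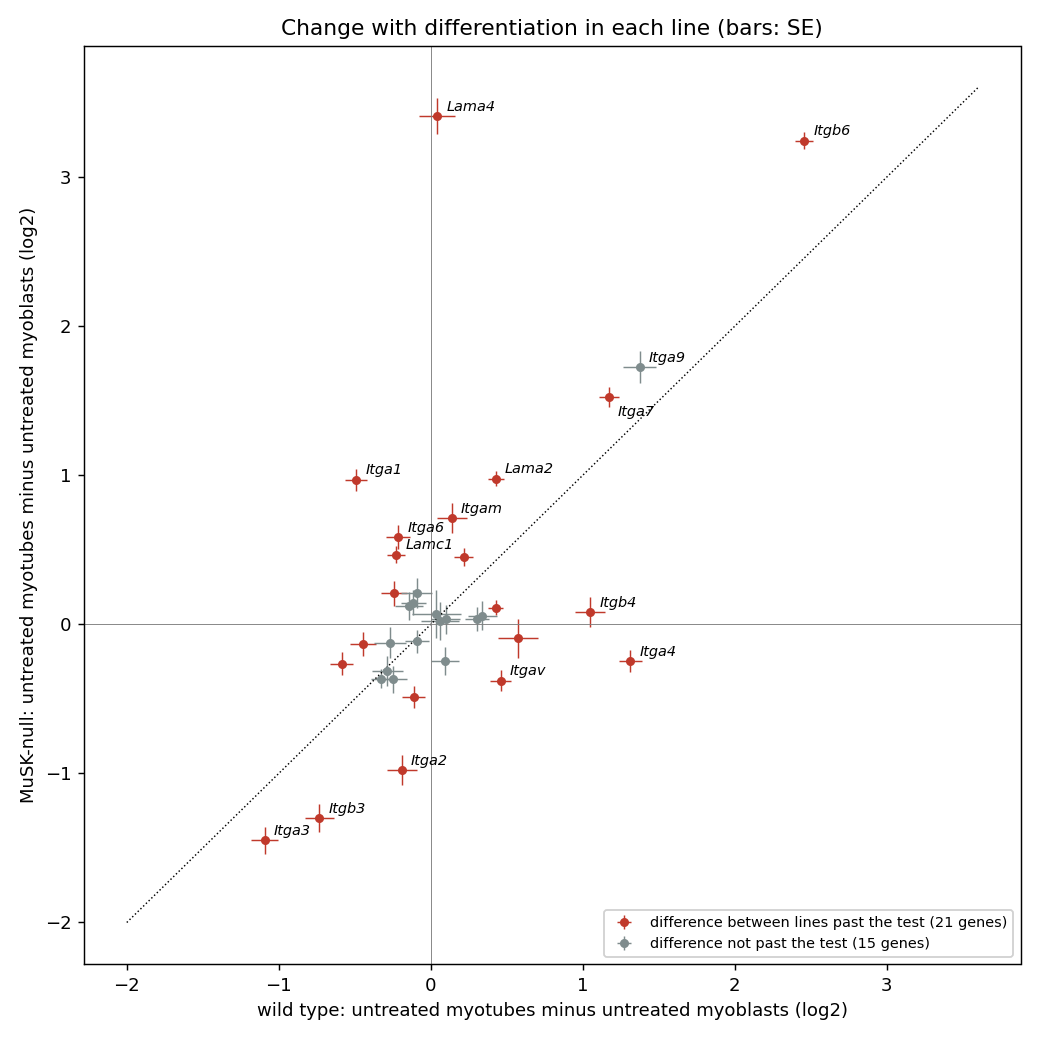
Change with differentiation (untreated myotubes minus untreated myoblasts, log2) of the 36 genes in the wild-type line (x axis) and the MuSK-null line (y axis), with SE bars, a dotted line of equal change, and red points for the 21 genes whose difference between lines passed. Itgb6, Itga9 and Itga7 stood high on both axes, Lama4 lay at 3.41 on the y axis and 0.04 on the x axis, and Itga4 at -0.25 and 1.31.

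Itga2 fell in the MuSK-null line (-0.98, SE 0.10, adjusted p = 2.4e-08) and changed by -0.19 in the wild-type line (adjusted p = 0.143), a difference of -0.79 (SE 0.14, adjusted p = 0.000148). Untreated myotubes of both lines lay under the olfactory level for Itga2, so these sizes are not dependable. Itga6 rose by 0.58 (SE 0.08, adjusted p = 2.27e-06) in the MuSK-null line and fell by 0.21 (SE 0.08, adjusted p = 0.0352) in the wild-type line, a difference of 0.80 (SE 0.12, adjusted p = 8.66e-06). Itgav fell by 0.38 in the MuSK-null line (adjusted p = 6.67e-05) and rose by 0.46 in the wild-type line (adjusted p = 5.02e-06). The 5 genes Itga2b, Itgad, Itgax, Lama3 and Lamc3 passed in none of the 11 contrasts.

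Other differentiation calls were small. In the MuSK-null line Itgae (-0.25) was lost without myoblast replicate 1 or 3 or myotube replicate 2 or 3 (adjusted p 0.101 to 0.187), and Itgb7 (-0.32) without myoblast replicate 3 (0.105) or myotube replicate 2 (0.0891), while Itga10 (0.21) passed without myoblast replicate 2 (0.0364). In the wild-type line Itga5 (-0.27) was lost without myoblast replicate 1 or 3 or any myotube replicate (0.0611 to 0.217), Itga10 (-0.24) without myoblast replicate 1 or 2 or myotube replicate 1 or 2 (0.0549 to 0.0784), Itga6 (-0.21) without myoblast replicate 2 or myotube replicate 1 or 3 (0.113 to 0.156), Lamb2 (-0.25) without myoblast replicate 2 or myotube replicate 1 or 2 (0.0755 to 0.13), and Itgb7 (-0.29) without myoblast replicate 3 (0.0813) or myotube replicate 3 (0.151). Among the differences between lines, those of Itga3, Itga11, Itgb8 and Lamb1 had adjusted p-values of 0.0277 to 0.0478. That of Itga3 was lost on leaving out any 1 of 9 of the 12 arrays (0.0515 to 0.139), all but wild-type myoblast replicate 1, wild-type myotube replicate 1 and MuSK-null myotube replicate 2. That of Itgb8 was lost for 9 as well (0.0592 to 0.148), all but wild-type myotube replicate 1 and MuSK-null myotube replicates 1 and 3, and that of Lamb1 for 9 (0.06 to 0.118), all but wild-type myoblast replicate 3, MuSK-null myoblast replicate 2 and MuSK-null myotube replicate 3. That of Itga11 was lost for 6 (0.057 to 0.0862), namely wild-type myoblast replicates 1 and 3, wild-type myotube replicates 1 and 2, MuSK-null myoblast replicate 2 and MuSK-null myotube replicate 3.

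The lines also differed before treatment. Of the 36 genes, 13 were higher and 13 lower in untreated MuSK-null than in untreated wild-type myotubes, 72.2% against 37.4% of all genes (19.4% higher and 18% lower). In untreated myoblasts 11 were higher and 8 lower in the MuSK-null line, 52.8% against 31.3% of all genes (15.3% higher and 16% lower), and with arrays centred on their medians 11 were higher and 6 lower there. Higher at both stages were Itga3, Itga8, Itga11, Itgb3, Lama2, Lama5, Lamb1 and Lamb2, and lower at both were Itga1, Itga7, Itgb4, Itgb6, Lama1 and Lamb3. The median difference was 0.06 in myotubes and 0.04 in myoblasts, against 0.04 and -0.01 over all genes. Fibroblast markers moved with this comparison. Of 9, 7 were higher in MuSK-null myotubes and 1 lower, with a mean level of 10.14 to 10.26 against 9.07 to 9.14 in wild-type myotubes, and 5 were higher and 1 lower in MuSK-null myoblasts, with 9.77 to 9.84 against 9.03 to 9.17. Of the 14 muscle markers 2 were higher in MuSK-null myotubes and 9 lower, and 1 was higher and 11 lower in MuSK-null myoblasts. Their part in the integrin and laminin differences was not tested.

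Itga7 was lower in the null line at both stages, by 0.94 (SE 0.07, adjusted p = 6.72e-11) in myotubes and by 1.29 (SE 0.07, adjusted p = 2.58e-13) in myoblasts. Itgb6 was 2.12-fold lower in MuSK-null myotubes (log2 difference -1.08, SE 0.06, adjusted p = 7.78e-13) and 3.65-fold lower in MuSK-null myoblasts (-1.87, SE 0.06, adjusted p = 3.32e-17). Itga1 was 2.03-fold lower in MuSK-null myotubes (-1.02, SE 0.07, adjusted p = 7.15e-11), and in myoblasts it was lower too (-2.48, SE 0.07, adjusted p = 7.83e-18), there against a null group under the olfactory level. For these 3 genes no array of the null line reached any array of the wild-type line at the same stage. Itgb4 was 2.42-fold lower in MuSK-null myotubes (-1.27, SE 0.10, adjusted p = 2.86e-10). Its difference in myoblasts was -0.31 (adjusted p = 0.019) and was lost without wild-type replicate 2 (adjusted p = 0.0692), without MuSK-null replicate 1 (0.114), and with arrays centred on their medians (0.0622).

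Itga3 was higher in the null line, by 0.82 (SE 0.09, adjusted p = 1.27e-07) in myotubes and 1.17 (SE 0.09, adjusted p = 4.12e-10) in myoblasts, and Itgb3 by 0.63 (SE 0.10, adjusted p = 1.05e-05) and 1.20 (SE 0.10, adjusted p = 6.47e-10). Itga11 read 8.98, 9.04 and 9.07 in MuSK-null myotubes and 7.78, 7.73 and 7.95 in wild-type myotubes (1.21, SE 0.08, adjusted p = 9.85e-12), and 9.32, 9.17 and 9.39 in MuSK-null myoblasts against 8.44, 8.29 and 8.49 in wild-type myoblasts (0.88, SE 0.08, adjusted p = 2.5e-09). Itga8 read 7.23, 7.53 and 7.28 in MuSK-null myotubes and 6.49, 6.31 and 6.29 in wild-type myotubes (0.98, SE 0.13, adjusted p = 1.07e-06), and 7.34, 7.35 and 7.28 in MuSK-null myoblasts against 6.43, 6.33 and 6.16 in wild-type myoblasts (1.02, SE 0.13, adjusted p = 7.82e-07). All untreated arrays of the wild-type line lay under the olfactory level for Itga8, so its sizes are not dependable.

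Of the 10 laminin chains, 6 were higher and 2 lower in the null line in myotubes, where 19.4% of all genes were higher and 18% lower. In myoblasts 4 were higher and 3 lower, where 15.3% of all genes were higher and 16% lower. Lamc1 was 1.70-fold higher in MuSK-null myotubes (log2 difference 0.76, SE 0.06, adjusted p = 2.72e-10), and in myoblasts its difference was 0.07 (adjusted p = 0.47). Lama2 was 1.61-fold higher in MuSK-null myotubes (0.69, SE 0.05, adjusted p = 2.31e-10). In myoblasts the Lama2 call, at 0.14 (adjusted p = 0.0445), was lost without wild-type replicate 1 or 3 or any MuSK-null replicate (adjusted p 0.059 to 0.17). Lama5 was higher by 0.72 (SE 0.06, adjusted p = 2.81e-09) in myotubes and 0.75 (SE 0.06, adjusted p = 1.44e-09) in myoblasts. Lama4 turned with stage, being 2.31-fold higher in MuSK-null myotubes (1.21, SE 0.12, adjusted p = 2.07e-08) and lower in MuSK-null myoblasts (-2.16, SE 0.12, adjusted p = 9.25e-13), where the signal was weak. Lamb3 in myoblasts (-0.29, adjusted p = 0.024) was lost without wild-type replicate 2 (-0.17, adjusted p = 0.2) or MuSK-null replicate 1 (0.0643) or 2 (0.0636), and with arrays centred (0.0648).

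Itga4 and Itgav also turned with stage. Itga4 was 2.37-fold lower in MuSK-null myotubes (log2 difference -1.25, SE 0.07, adjusted p = 3.67e-12) and higher by 0.31 (SE 0.07, adjusted p = 0.00211) in MuSK-null myoblasts. Itgav was lower by 0.21 (SE 0.07, adjusted p = 0.02) in MuSK-null myotubes, a call lost without wild-type replicate 3 (adjusted p = 0.0503) or MuSK-null replicate 1 (0.0627), and higher by 0.63 (SE 0.07, adjusted p = 9.22e-08) in MuSK-null myoblasts. Among leukocyte chains, Itgal was lower in MuSK-null myotubes, with 6.14, 6.14 and 6.44 against 6.69, 6.83 and 7.01 in wild-type myotubes (-0.60, SE 0.13, adjusted p = 0.000671), and Itgb2 was lower by 0.31 (SE 0.08, adjusted p = 0.00262). The null groups of both lay under the olfactory level, so neither size is dependable. Of 13 leukocyte markers 3 were lower and 0 higher in MuSK-null myotubes, 23.1% of the list, a share below the 37.4% of all genes (18% lower). Their mean level was 6.46 to 6.54 there against 6.61 to 6.68 in wild-type myotubes. In untreated myotubes of each line 7 of the 13 exceeded the olfactory level, while Ptprc, Cd4, Cd79a, Csf1r and Adgre1 exceeded it in no group. Itgae (-0.30) was lost without wild-type replicate 1 or MuSK-null replicate 2 or 3 (adjusted p 0.0682 to 0.0913), Itgam (0.33) without wild-type replicate 2 (0.0658), and Itgb8 (0.26) without wild-type replicate 3 (0.088) or MuSK-null replicate 2 (0.124).

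Genes that work beside integrins and laminins were read from 3 lists. Of 28 adaptors and signalling proteins at the inner face of integrins, BMP4 raised 4 and lowered 2 in myotubes of each line, raised 2 and lowered 3 in MuSK-null myoblasts, and raised 2 and lowered 4 in wild-type myoblasts, with list medians between -0.02 and 0.04. The called shares of the list were 21.4% in MuSK-null and 21.4% in wild-type myotubes, 17.9% in MuSK-null and 21.4% in wild-type myoblasts, against 11.3%, 8.77%, 8.42% and 11% of all genes in the same order. Tln2, a talin that links integrins to actin, rose in wild-type myotubes (0.44, adjusted p = 4.08e-06), MuSK-null myoblasts (0.33, adjusted p = 0.000107) and wild-type myoblasts (0.40, adjusted p = 7.3e-06). Ptk2b, a focal adhesion kinase relative, fell in myoblasts, by 0.68 (adjusted p = 6.63e-05) in MuSK-null and 0.74 (adjusted p = 1.58e-05) in wild type. With differentiation 6 of the 28 rose and 13 fell in the MuSK-null line, and 4 rose and 12 fell in the wild-type line, which is 67.9% and 57.1% of the list against 41.6% and 45% of all genes. Itgb1bp2, a muscle protein that binds the beta 1 tail, rose by 3.61 (SE 0.06, adjusted p = 7.75e-23) in the MuSK-null and by 1.73 (SE 0.06, adjusted p = 1.1e-16) in the wild-type line, a difference of 1.88 (SE 0.08, adjusted p = 5.07e-14). The adaptor Tns3 fell by 1.35 in the MuSK-null and by 1.21 in the wild-type line. Between the lines the null line had 10 of 28 higher and 7 lower at the myotube stage, and 10 higher and 5 lower at the myoblast stage, 60.7% and 53.6% against 37.4% and 31.3% of all genes. Tns1, a tensin, was higher by 2.27 in MuSK-null myotubes and by 1.02 in MuSK-null myoblasts.

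Of 24 basement membrane proteins and other laminin receptors, BMP4 raised 1 and lowered 1 in MuSK-null myotubes, raised 2 and lowered 3 in wild-type myotubes, raised 4 and lowered 3 in MuSK-null myoblasts, and raised 3 and lowered 6 in wild-type myoblasts. These are 8.33%, 20.8%, 29.2% and 37.5% of the list, against 11.3%, 8.77%, 8.42% and 11% of all genes, so the share in MuSK-null myotubes was below that of all genes. Smoc2, a secreted calcium-binding protein of basement membranes, rose in all 4, by 1.53 (SE 0.07, adjusted p = 2.68e-13) and 1.13 (SE 0.07, adjusted p = 7.34e-11) in MuSK-null and wild-type myotubes and by 1.07 (SE 0.07, adjusted p = 1.06e-10) and 1.42 (SE 0.07, adjusted p = 7.85e-13) in MuSK-null and wild-type myoblasts. Nid2, which joins laminin to collagen IV, fell by 0.25 and 0.22 in MuSK-null and wild-type myotubes and by 0.24 in MuSK-null myoblasts. Between the lines the collagen chains Col15a1 and Col4a2 were higher in MuSK-null myotubes, by 3.61 and 2.47, and in MuSK-null myoblasts, by 1.86 and 1.41. Bcam, a receptor for the Lama5 chain, was lower by 2.46 in MuSK-null myotubes and 1.34 in MuSK-null myoblasts. Its ligand chain Lama5 was higher at both stages. In all, 6 were higher in MuSK-null myotubes and 9 lower, and 11 were higher and 8 lower in MuSK-null myoblasts, 62.5% and 79.2% of the list against 37.4% and 31.3% of all genes. With differentiation 8 rose and 8 fell in the MuSK-null line, and 12 rose and 5 fell in the wild-type line, 66.7% and 70.8% against 41.6% and 45% of all genes.

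Of 21 integrin ligands other than laminins, BMP4 raised 6 and lowered 1 in MuSK-null myotubes, raised 5 and lowered 0 in wild-type myotubes, raised 5 and lowered 2 in MuSK-null myoblasts, and raised 6 and lowered 3 in wild-type myoblasts. The called shares were 33.3%, 23.8%, 33.3% and 42.9% of the list, against the same 11.3%, 8.77%, 8.42% and 11% of all genes. Ccn2, a matricellular ligand of several integrins, rose in all 4, by 0.86 and 0.67 in MuSK-null and wild-type myotubes and by 1.24 and 1.30 in MuSK-null and wild-type myoblasts. Edil3, an RGD ligand of alpha v integrins, fell in MuSK-null myotubes (-0.35), MuSK-null myoblasts (-0.59) and wild-type myoblasts (-0.41). Adam12, a membrane protein with a disintegrin domain, rose by 1.11 (SE 0.06, adjusted p = 8.77e-12) in MuSK-null myoblasts, and its response differed from that of wild-type myoblasts by 1.13 (SE 0.09, adjusted p = 1.88e-08). Vcam1, a ligand of the Itga4 receptor, was higher by 1.06 in MuSK-null than in wild-type myoblasts and fell by 1.68 with differentiation in the MuSK-null line. Between the lines 6 were higher in MuSK-null myotubes and 11 lower, with Tgfbi higher by 3.00 and Postn by 2.22, and 8 were higher and 6 lower in MuSK-null myoblasts, 81% and 66.7% of the list against 37.4% and 31.3% of all genes. With differentiation 6 rose and 10 fell in the MuSK-null line, and 4 rose and 8 fell in the wild-type line, 76.2% and 57.1% against 41.6% and 45% of all genes.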

How the data were processed

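RNA of 24 samples was measured on Affymetrix whole-transcript arrays, 1 array each. The authors deposited 1 table of log2 values with a row per probe set and a column per array. Its values, from 2.50 to 15.03, show the log scale. Per the submitters' processing notes, the tools were Affymetrix Expression Console and Partek, given with no version or role. Not given in the sources used here: the background correction and the normalization. No counts stand behind array values, so the number of arrays limits the precision. Of 35556 rows, 21789 had 1 gene symbol in the platform annotation, 1621 several and 12146 none. The brightest row per gene was kept, which left 19938 genes.

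The values as deposited were modelled with limma 3.58.1 (R 4.3.3) on all arrays, a mean for each group and 16 residual degrees of freedom, in 11 contrasts. P-values were adjusted by Benjamini-Hochberg over all 19938 genes, and an adjusted p under 0.05 was called. Values with ± are SDs over 3 arrays. On simulated arrays with 200 changed genes among 19938, the test recovered 28.4% of changes of 0.3 log2 units, 83.6% of 0.6 and 100% of 1 for the BMP4 response of wild-type myoblasts. For the genotype difference of BMP4 responses of myotubes the shares were 5.97%, 64.2% and 95.5%. The simulated noise was independent between arrays, and the real contrasts called 477 to 8966 genes. The shares recovered in the real data may therefore differ.

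Same-numbered arrays deviated together, with every correlation over 0.1, for the BMP4 response of MuSK-null myoblasts (0.116 to 0.460) and the untreated myoblast genotypes (0.223 to 0.421). This hint comes from the data, since no label gives a shared batch. The members and lists were chosen with earlier results of these data known. Array values are given for genes with a called change of at least 1 log2 unit, for Itga7, Itgb1, Lama2, Lamb1 and Lamc1, and for a few others chosen after their values were seen (Itgb8, Lamb3 and Itgal). From each list, up to 2 of the largest rises and 2 of the largest falls per contrast could be named. Alternatives were a fit of the compared groups alone, quantile normalization, arrays centred on their median, trend and robust moderation, removal of dim genes, replicate blocks and each array left out. A fit without 4 correlated myoblast arrays, and one with them as a block, were added after seeing the data.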

Additional observations from a re-analysis of the deposited data

Results flagged for a closer look

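These results were singled out because the same contrast differed between the 2 lines by its own test (limma, adjusted p under 0.05 over all genes). Differences are MuSK-null response minus wild-type response in log2 units.

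For BMP4 in myotubes, the responses of Itgb3 (0.63) and Itgb6 (0.47) were greater in the MuSK-null line, and those of Itga3 (-0.55), Itga11 (-0.49) and Lamb1 (-0.48) were lower. For BMP4 in myoblasts, Itgb3 was greater again (0.71), and Itgb8 (-0.52), Lama2 (-0.40) and Itgb6 (-0.31) were lower.

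For differentiation, 12 genes were greater in the MuSK-null line. The laminin chains among them were Lama4 (3.37), Lamc1 (0.70), Lama2 (0.55) and Lamb1 (0.23). The laminin-binding alpha chains were Itga6 (0.80) and Itga7 (0.35), and the collagen-binding chains were Itga1 (1.46), Itga10 (0.45) and Itga11 (0.32). The beta chains were Itgb6 (0.79) and Itgb8 (0.31), and the leukocyte chain was Itgam (0.57). Lower in the MuSK-null line were Itga4 (-1.56), Itgb4 (-0.97), Itgav (-0.84), Itga2 (-0.79), Itgal (-0.67), Itgb3 (-0.57), Itgb5 (-0.37), Itga3 (-0.35) and Itgb1 (-0.31). Itgb3 and Itgb6 therefore differed between the lines in all 3 tests, and for each gene the BMP4 and differentiation contrasts share the untreated arrays. The myoblast BMP4 difference of Itgb6 was near the threshold (limma, adjusted p = 0.0497) and was lost on leaving out most single arrays. The sizes of Lama4, Itga1, Itga2, Itgal and Itgam involve groups under the olfactory level and are not dependable.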

How the results depend on the processing

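Over the 11 contrasts the 36 genes gave 166 calls. Of these, 129 passed with any array left out and in every alternative that tested the gene, 37 were lost in at least 1, and 0 reversed. Removal of dim genes (mean over 24 arrays under 6.619) took out Itgae, Itgal, Itgam and Itgb2. Calls of these genes were therefore not tested in that setting and are not counted as lost there. All lost calls were at most 0.55 log2 units in size. Leaving out an array ended 35 and another setting 25, of which the fit of the compared groups alone ended 21, removal of the 4 correlated myoblast arrays 10, median centring 8, the replicate block 4, quantile normalization 3, trend and robust moderation 2, and those 4 arrays as a block 1. A further 24 tests of the 36 genes, at most 0.62 log2 units in size, passed only elsewhere. Leaving out an array let 13 pass and another setting 19, of which removal of the 4 correlated arrays let 11 pass, those arrays as a block 11, removal of dim genes 6, trend and robust moderation 5, the fit of the compared groups alone 4, quantile normalization 4, median centring 3 and the replicate block 1.

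The numbers of called genes kept within 1.5 times the value given, except in 3 cases. The BMP4 response of MuSK-null myoblasts gave 1115 genes in the fit of the compared groups alone, which has fewer samples, against 1678. With the 4 correlated arrays as a block, the difference of BMP4 responses gave 1011 genes in myotubes and 745 in myoblasts, against 640 and 477. Median centring moved the share of higher calls over all genes from 49% to 61.5% for untreated MuSK-null against wild-type myoblasts, and from 46.9% to 62.8% for the difference of BMP4 responses in myotubes, where members stayed at 2 higher and 3 lower.

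In the 2 contrasts whose replicate numbers pair by the correlation of deviations, the replicate block gave 1715 genes for the BMP4 response of MuSK-null myoblasts and 6300 for untreated MuSK-null against wild-type myoblasts, against 1678 and 6245, and changed no call of the 36 genes. Elsewhere the samples share only a number, and under the block Itga2 in BMP4-treated MuSK-null myotubes (adjusted p = 0.0559), Itga10 in BMP4-treated wild-type myoblasts (0.0556), the myoblast difference of Itgb6 (0.0545) and the differentiation difference of Itga3 (0.0537) no longer passed.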
